A study of Homo sapiens with 21 samples.

Results

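Mitochondrial DNA is copied and transcribed by proteins that are themselves encoded in the nucleus. Transcripts of 10 genes for such proteins, namely TFAM, TFB2M, POLRMT, TFB1M, TEFM, MTERF1, MTERF3, POLG, POLG2 and TWNK, were taken by name from a table of raw gene counts that holds 42339 gene identifiers. All 10 genes were found, 1 identifier each, and all 10 passed the filter on low counts in each comparison. The cells were BT-549, an established human line of triple-negative breast cancer with wild-type BRCA1 according to the labels. Poly(A) RNA was sequenced from 21 libraries in 7 groups of 3.

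The 2D group was grown as attached cells in medium with serum, and the 3D group as mammospheres in ultra-low attachment plates at passage 6, both without a named drug. The third group held passage 6 mammospheres treated with 0.75 umol/L GO-203, a cell-penetrating peptide inhibitor of MUC1-C, the transmembrane subunit of the oncoprotein MUC1. The other 4 groups were mammospheres of derived lines in which doxycycline (DOX) switches on a hairpin RNA. The tet-MUC1shRNA line was at passage 6 and the tet-MYCshRNA line at passage 8, and each was given 500 ng/ml DOX or, as vehicle, 0.1% DMSO. Each line carried 1 hairpin sequence, and DOX was given only together with a hairpin, so the drug and the hairpin cannot be told apart within a line. Culture format, medium and the serial passage of isolated spheres likewise changed together between 2D and 3D, and cannot be told apart. Per the study's methods the cells of each group were cultured 3 times, so p-values measure the spread between cultures of a line.

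Transcription of the mitochondrial genome starts when TFAM bends the promoter DNA and TFB2M helps POLRMT, a single-subunit RNA polymerase, to open it. Long transcripts run from both strands, TEFM keeps the polymerase moving, and the tRNAs that punctuate them are cut out to free the mRNAs and rRNAs. TFB1M, a relative of TFB2M, methylates the small rRNA, MTERF1 binds DNA and can stop transcription beyond the rRNA genes, and MTERF3 is known as a negative regulator of initiation and for a part in ribosome assembly. Replication needs POLG, the catalytic subunit of the polymerase, its accessory subunit POLG2, and TWNK, the helicase also called Twinkle. TFAM further packages the genome into nucleoids.

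The genes lie on different chromosomes, except for a pair each on chromosome 10 (TFAM and TWNK) and chromosome 17 (TEFM and POLG2). In GENCODE release 44 on GRCh38, TFAM occupies chr10:58385345-58399220, TFB1M chr6:155256134-155314493, POLG chr15:89305198-89334861 and TWNK chr10:100987367-100994403. TFB1M shares 30.7% of its exon bases with a gene on the opposite strand, TIAM2, and 14.4% with a gene on its own strand. TEFM shares 20.5% with an opposite-strand gene, and POLG 9.46% with POLGARF on the same strand. Pseudogenes with the parent's name are annotated for TFAM (2), POLRMT (1) and MTERF1 (1). How reads that fit several genes or either strand were counted is not given in the sources used here, so the values of these genes carry that uncertainty.

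Promoter windows from RefSeq (GRCh38.p14, 250 bases before to 50 after the start) were matched for 8 of the 10 genes, all but MTERF3 and TWNK. In these windows 4 short motifs were searched for on both strands, each for a factor known to act on nuclear genes of mitochondria or for MYC. The NRF1 core GCATGCG was found in 3 of the 8 windows (TFB2M, POLRMT and TFB1M) and in 4.13% of 27305 promoter windows. An ETS motif of the kind bound by GABP, CCGGAAG, was found in 5 (POLRMT, TFB1M, TEFM, MTERF1 and POLG2) against 10.67% of all, and the GC box GGGCGG in 6 against 44.59%. The canonical MYC E-box CACGTG was in 0 of 8 and in 7.43% of all, which says only that these letters are not in these windows. The windows of the initiation genes and of TFB1M, the relative of TFB2M, are shown as those of the transcription machinery that rose in 3D and fell on MYC silencing, as described below. The replication genes POLG and POLG2 also rose in 3D and fell on MYC silencing, and their windows, not shown, hold GC boxes but no NRF1 core. Capitals mark the motif matches. The NRF1 core overlaps itself where an 8-base palindrome matches on both strands, and GC boxes overlap one another upstream of TFAM.
TFAM, chr10:58385160-58385459, plus strand: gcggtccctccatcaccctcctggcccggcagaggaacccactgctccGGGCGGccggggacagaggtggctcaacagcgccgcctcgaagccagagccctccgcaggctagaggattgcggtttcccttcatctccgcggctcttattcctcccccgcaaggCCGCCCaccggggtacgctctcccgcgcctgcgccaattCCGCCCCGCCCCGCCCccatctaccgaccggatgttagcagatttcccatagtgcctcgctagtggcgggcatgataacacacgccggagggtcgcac
TFB2M, chr1:246566212-246566511, minus strand: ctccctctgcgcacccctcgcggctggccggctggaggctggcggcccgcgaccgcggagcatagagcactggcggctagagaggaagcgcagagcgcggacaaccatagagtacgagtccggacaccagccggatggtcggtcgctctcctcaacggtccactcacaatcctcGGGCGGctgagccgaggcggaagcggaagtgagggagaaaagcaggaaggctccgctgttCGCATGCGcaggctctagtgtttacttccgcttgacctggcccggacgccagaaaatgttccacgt
POLRMT, chr19:633488-633787, minus strand: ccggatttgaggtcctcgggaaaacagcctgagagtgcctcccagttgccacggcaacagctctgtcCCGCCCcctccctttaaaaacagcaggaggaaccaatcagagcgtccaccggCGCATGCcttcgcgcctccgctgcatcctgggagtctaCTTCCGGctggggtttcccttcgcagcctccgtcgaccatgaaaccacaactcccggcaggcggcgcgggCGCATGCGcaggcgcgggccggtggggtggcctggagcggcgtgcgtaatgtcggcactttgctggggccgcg
TFB1M, chr6:155314435-155314734, minus strand: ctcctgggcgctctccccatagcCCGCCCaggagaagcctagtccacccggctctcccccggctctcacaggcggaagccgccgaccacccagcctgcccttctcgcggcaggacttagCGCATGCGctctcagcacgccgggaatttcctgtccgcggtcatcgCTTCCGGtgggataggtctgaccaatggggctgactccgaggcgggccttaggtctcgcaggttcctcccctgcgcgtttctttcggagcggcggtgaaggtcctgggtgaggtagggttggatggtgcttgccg
The TFAM window holds 5 GC boxes and none of the other motifs, the first at position -202 and the last at -38 from the start. In TFB2M the NRF1 palindrome begins at -16, in TFB1M at -131, and POLRMT has cores beginning at -131 and -23.

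The libraries held 38026597 to 99751717 counts. The lowest count of any of the 10 genes in any library was 163, for TEFM. Mesenchymal markers were detected in every library (VIM at 1075 to 2485 CPM, which are counts scaled to library size, ZEB1 at 87.9 to 339, SNAI2 at 32.3 to 159 and CDH2, whose level varied most, at 11.3 to 452), the 4 epithelial genes EPCAM, CDH1, KRT8 and KRT18 summed to 0.0403 to 2.72 CPM although the labels call the tissue epithelial, and of markers of blood and endothelial cells PTPRC reached at most 1.49 CPM, CD3E 0.0653 and PECAM1 10.0. ESR1 and PGR were at or near 0 (at most 1.48 CPM) and ERBB2 at 18.4 to 42.0 CPM. The targeted transcripts followed the labels. MUC1 went from 90.3 ± 9.64 CPM (SD, n = 3) with vehicle to 21.4 ± 1.81 with DOX in the tet-MUC1shRNA line, and MYC from 414 ± 26.6 to 273 ± 27.2 in the tet-MYCshRNA line, a smaller reduction (log2 fold change -0.62) than that of MUC1 (-2.06). MUC1 itself rose on MYC silencing (1.25) and MYC on MUC1 silencing (0.25). MUC1 also rose with GO-203 (0.33), from 207 CPM in 3D to 255. Vehicle-treated tet-MUC1shRNA mammospheres held less MUC1 (90.3 CPM) and MYC (245 CPM) than 3D (207 and 581 CPM).

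Per kilobase of merged exon, MTERF3 had the highest mean over the 21 libraries (31.0 CPM per kb), followed by TFB2M (22.7) and TFAM (22.3). The other genes lay between 6.58 (POLRMT) and 2.57 CPM per kb (POLG2). The order depends on the merged length, which was 1801 bases for MTERF3, 1784 for TFB2M and 5282 for TFAM. Which transcripts were expressed was not tested. By total counts over the 21 libraries TFAM (142844) stood above MTERF3 (68469) and TFB2M (48532). Levels below are CPM scaled by TMM factors over all libraries, changes are log2 fold changes with their standard error (SE) from edgeR's quasi-likelihood test, and a gene is called at an adjusted p below 0.1, the false discovery rate the study used.

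**Figure D1:**
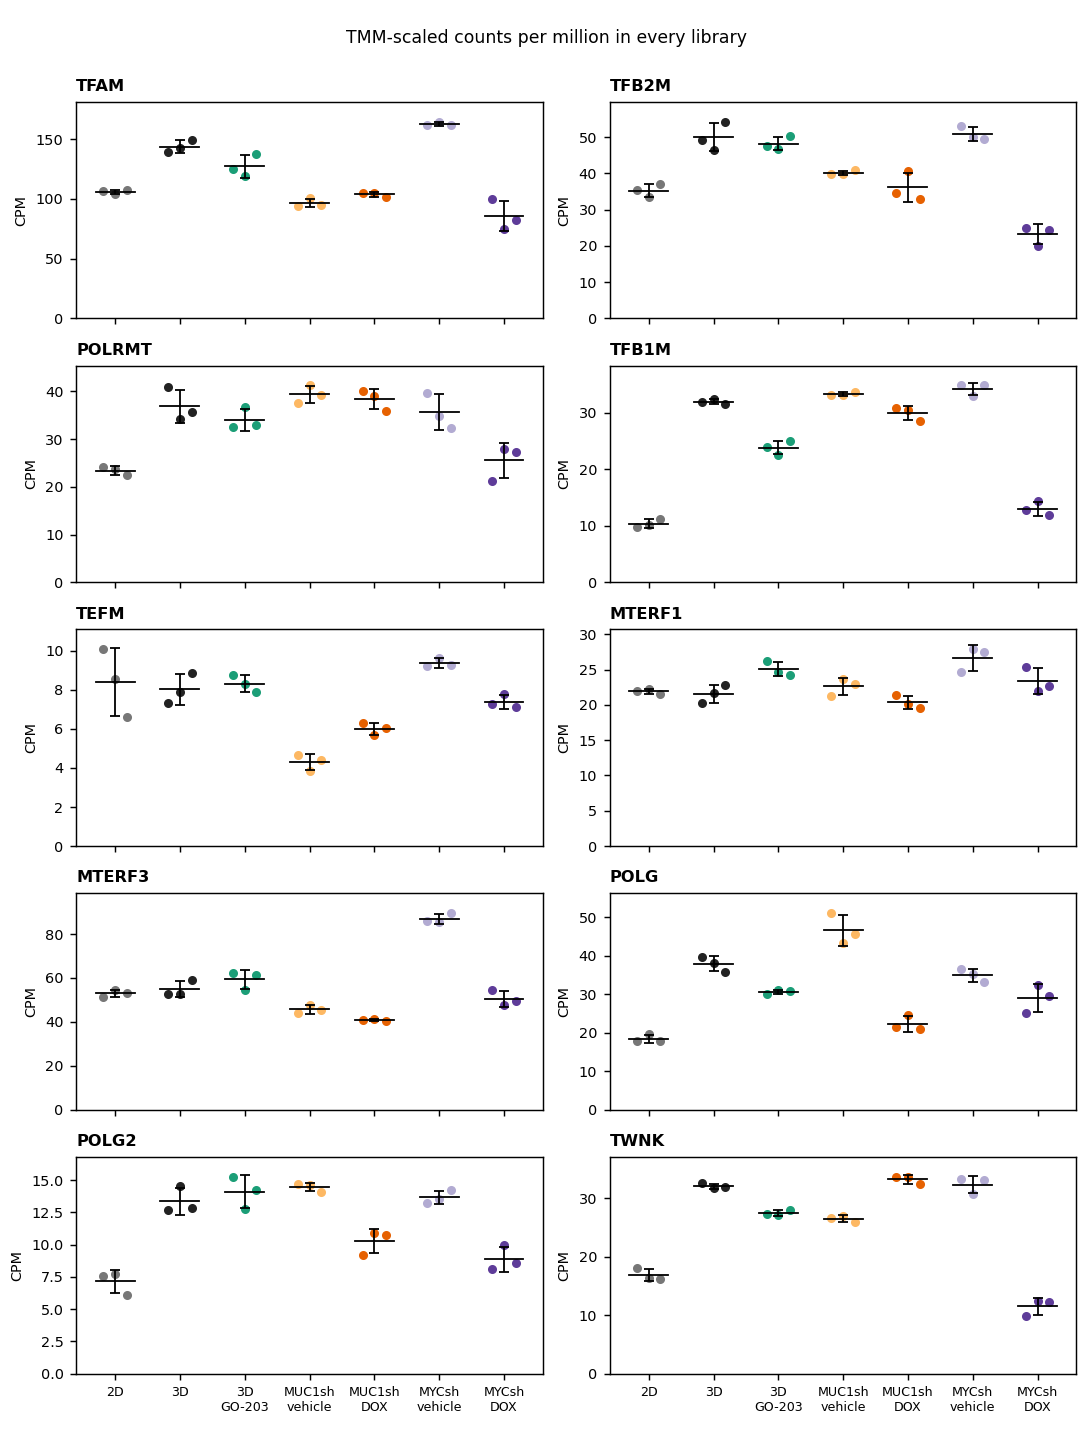
Level of each factor (y axis, TMM-scaled CPM from 0) in each of the 21 libraries (points) by group (x axis), with the group mean and SD (n = 3). TFB1M separates 2D (9.73 to 11.2 CPM) and MYC-silenced mammospheres (11.8 to 14.3) from every other group (22.6 to 34.8), while MTERF1 stays between 19.6 and 27.9 CPM throughout.

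The spread of levels over the 7 groups differed by gene. TFB1M varied most, 3.29-fold between its highest and lowest group mean, and MTERF1 least, 1.31-fold. For TFAM the order was vehicle-treated tet-MYCshRNA mammospheres (163 CPM), 3D (144), GO-203 (127), 2D (106), MUC1-silenced (104), vehicle-treated tet-MUC1shRNA (96.4) and MYC-silenced (85.5). Of its 6 neighbouring pairs in that order, 2D with MUC1-silenced and vehicle-treated tet-MUC1shRNA with MYC-silenced overlapped, and the other 4 did not. MTERF3 was highest in vehicle-treated tet-MYCshRNA mammospheres too (87.0 CPM) and lowest in MUC1-silenced ones (40.9), but the groups at ranks 2 to 5, GO-203 (59.4), 3D (54.8), 2D (52.9) and MYC-silenced (50.6), overlapped their neighbours. All 6 neighbouring pairs overlapped for MTERF1.

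Some levels in vehicle-treated mammospheres of the hairpin lines stood apart from those in 3D mammospheres of the parental cells. TEFM read 4.30 ± 0.428 CPM in the vehicle-treated tet-MUC1shRNA line against 8.03 ± 0.786 in 3D and 9.38 ± 0.238 in the vehicle-treated tet-MYCshRNA line (SD, n = 3). Passage, hairpin line and DMSO differ among these groups, and their parts were not tested.

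Across the 7 group means, POLRMT and TFB1M had the most similar pattern of any pair of the 10 genes (Pearson r = 0.98), and POLRMT and TEFM the most opposed (r = -0.42). TFAM was most like TFB2M among them (r = 0.87). Of 8841 genes with a mean of at least 10 CPM, those closest to TFAM over the 7 groups were BCCIP (r = 0.99), LYRM4 and ATAD3B (both 0.99), and those closest to MTERF3 were NAA16 (0.997), MAGOH (0.98) and MRPL35 (0.96). These are descriptions over 7 points that share a cell line.

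Growth as mammospheres was compared with growth in 2D. Of the 10 genes 7 rose, 0 fell and 3 were not called. Of all 19190 genes tested, 63.7% were called and 32.0% were called higher. The genes that rose were those of initiation (TFAM, TFB2M, POLRMT), of replication (POLG, POLG2, TWNK) and the rRNA methylase TFB1M. The elongation factor TEFM and both MTERF genes were not called. Their median change over the 10 genes was 0.58, against -0.01 over all genes tested. In bulk RNA, more cells of a kind and more RNA per cell cannot be told apart.

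TFAM read 107, 104 and 107 CPM in 2D and 139, 142 and 149 in 3D. The groups did not overlap, and TFAM rose by 0.44 (SE 0.06, adjusted p = 4.15e-06). TFB2M read 35.3, 33.5 and 37.0 CPM in 2D and 49.2, 46.5 and 54.3 in 3D, again without overlap (0.50, SE 0.07, adjusted p = 1.19e-05). POLRMT went from 24.1, 23.6 and 22.4 to 40.8, 34.2 and 35.7 CPM, a rise of 0.65 (SE 0.08, adjusted p = 1.6e-06). The polymerase thus rose by more than its initiation partners on the log2 scale, although the difference between these genes was not tested.

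TFB1M changed most. It read 9.73, 10.2 and 11.2 CPM in 2D and 32.0, 32.3 and 31.5 in 3D, a rise of 1.61 (SE 0.08, adjusted p = 4.52e-11), and was the 1 gene of the 10 past an absolute log2 fold change of 1.5, as were 16.2% of all genes. The replication genes moved by similar amounts. POLG went from 17.8, 19.7 and 17.8 to 39.6, 38.1 and 35.8 CPM (1.03, SE 0.07, adjusted p = 4.28e-09). POLG2 went from 7.605, 7.73 and 6.12 to 12.7, 14.6 and 12.8 CPM (0.90, SE 0.12, adjusted p = 5.31e-06), and TWNK from 18.1, 16.3 and 16.2 to 32.5, 31.7 and 31.9 (0.92, SE 0.07, adjusted p = 1.77e-08). None of these overlapped between 2D and 3D.

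TEFM read 10.1, 8.57 and 6.61 CPM in 2D and 7.33, 7.88 and 8.88 in 3D, so the 2D libraries straddled those of 3D (-0.07, SE 0.14, adjusted p = 0.715). MTERF1 (-0.03, SE 0.08) and MTERF3 (0.05, SE 0.06) also overlapped. The 95% interval of the difference was -0.08 to 0.17 for MTERF3 and -0.18 to 0.12 for MTERF1. When vehicle-treated tet-MUC1shRNA mammospheres stood in for 3D, 6 genes were still higher than in 2D, but TFAM was lower (-0.14, adjusted p = 0.0338), as were MTERF3 (-0.21, adjusted p = 0.00566) and TEFM (-0.97, adjusted p = 3.21e-05). The adjusted p of TFAM otherwise ranged from 4.98e-13 to 5.8e-05 over the alternatives and left-out libraries.

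**Figure D2:**
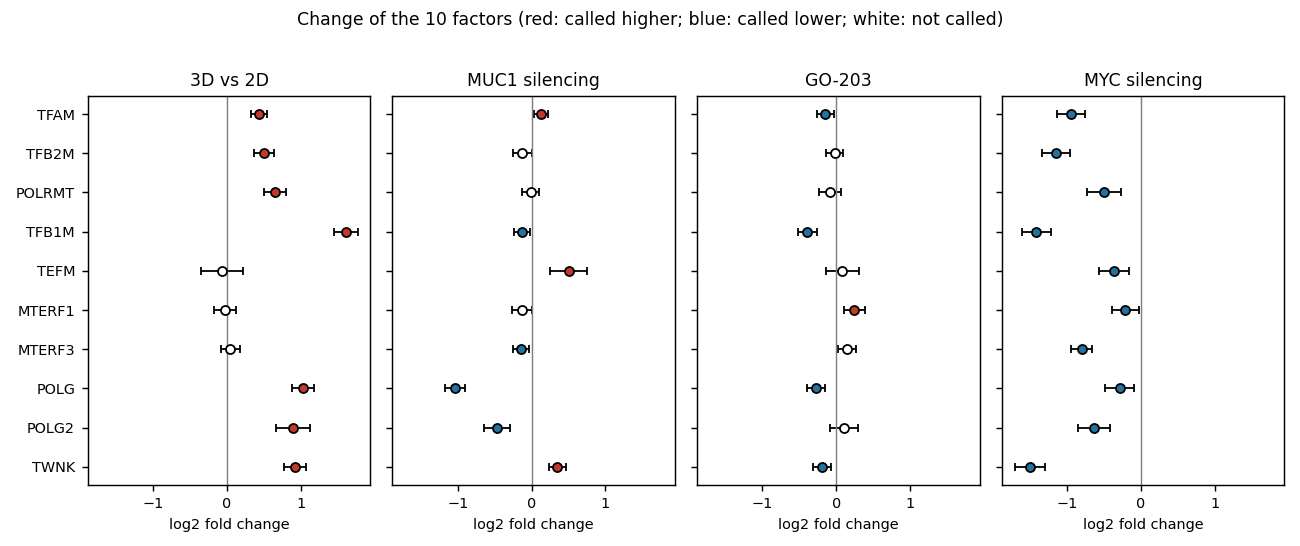
Log2 fold change (x axis) of each factor (y axis) in the 4 comparisons, with 95% intervals from the SE, 3 libraries against 3. On MYC silencing all 10 points lie below 0, from -0.21 (MTERF1) to -1.504 (TWNK), whereas MUC1 silencing spreads them from -1.04 (POLG) to 0.50 (TEFM).

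MUC1 silencing moved the 10 genes in both directions. TFAM, TEFM and TWNK rose, TFB1M, MTERF3, POLG and POLG2 fell, and TFB2M, POLRMT and MTERF1 were not called. The background was 62.2% of 19220 genes called (30.7% higher, 31.6% lower), and the median over the 10 genes was -0.13. None passed an absolute log2 fold change of 1.5, as 8.82% of all genes did. By size the called changes were led by POLG (lower), TEFM (higher), POLG2 (lower) and TWNK (higher). Library size alone, without TMM factors, moves the median of all genes by 0.165 in this comparison, which matters for the small changes below.

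POLG read 51.1, 43.2 and 45.6 CPM with vehicle and 21.4, 24.6 and 20.9 with DOX. The lowest vehicle library was well above the highest DOX library, and the fall was by 1.04 on the log2 scale (SE 0.07, adjusted p = 8.58e-11). Its accessory subunit POLG2 went from 14.7, 14.6 and 14.1 to 9.18, 10.9 and 10.7 CPM (-0.47, SE 0.09, adjusted p = 0.000118). TWNK went the other way, from 26.6, 27.0 and 25.9 to 33.7, 33.6 and 32.4 CPM (0.35, SE 0.06, adjusted p = 3.38e-05). The ratio of POLG to TWNK counts within a library, which no scaling factor can move, was 1.76 ± 0.157 with vehicle and 0.671 ± 0.0533 with DOX (SD, n = 3), without overlap (exact permutation test, two-sided, p = 0.1, the smallest that 3 against 3 allows). This ratio was chosen after these values were seen, so it restates them free of scaling and is not separate support.

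TEFM rose from 4.67, 3.83 and 4.40 to 6.28, 5.67 and 6.06 CPM (0.50, SE 0.13, adjusted p = 0.00185). TFAM read 93.7, 100.5 and 95.02 CPM with vehicle and 105, 105 and 102 with DOX. The groups were close but apart, with a rise of 0.13 (SE 0.05, adjusted p = 0.0222) that was not called with all 21 libraries in one fit (0.11, adjusted p = 0.255) and grew to 0.29 with library size alone (adjusted p from 1.38e-05 to 0.255 over the alternatives). MTERF3 fell from 43.8, 47.8 and 45.7 to 40.9, 41.4 and 40.3 CPM (-0.14, SE 0.05, adjusted p = 0.034), a direction that turned with library size alone (0.02). TFB1M likewise fell by 0.13 (SE 0.06, adjusted p = 0.0636) and read 0.04 with library size alone. MTERF3 was no longer called without vehicle replicate 2 (adjusted p = 0.125) or DOX replicate 1 (0.102), and TFB1M without vehicle replicate 3 (0.121), DOX replicate 2 (0.131) or DOX replicate 3 (0.191). Under a minimum of 10 counts per library neither was called (MTERF3 -0.0904, adjusted p = 0.156, and TFB1M -0.0794, adjusted p = 0.238), and TFB1M was also not called without a filter (adjusted p = 0.151).

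TFB2M (-0.13, SE 0.07, adjusted p = 0.113), POLRMT (-0.01, SE 0.06, adjusted p = 0.871) and MTERF1 (-0.13, SE 0.07, adjusted p = 0.111) overlapped between vehicle and DOX, and all of them were above 0 with library size alone. Leaving out DOX replicate 2 brought TFB2M to -0.21 (adjusted p = 0.0127), and leaving out vehicle replicate 1 brought MTERF1 to -0.18 (adjusted p = 0.0427). A ratio free of scaling, also chosen after values were seen, set TFAM against MTERF3, an activator and a negative regulator of the same step. It was 2.11 ± 0.0288 TFAM counts per MTERF3 count with vehicle and 2.54 ± 0.0242 with DOX, without overlap (exact permutation p = 0.1, the smallest possible). The same ratio was 2.00 ± 0.0859 in 2D and 2.62 ± 0.0874 in 3D, also without overlap (exact permutation p = 0.1).

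GO-203 was compared with the same 3D libraries that served above, so the values of these comparisons are not independent of each other. Of the 10 genes 1 rose (MTERF1), 4 fell (TFAM, TFB1M, POLG and TWNK) and 5 were not called, against 24.1% of 18488 genes called (11.1% higher, 12.9% lower). The changes were small, between -0.39 and 0.25, with a median of -0.05. TFB1M read 23.8, 22.6 and 24.9 CPM with GO-203, all below the 31.5 of the lowest 3D library (-0.39, SE 0.07, adjusted p = 0.000149). POLG read 29.9, 31.1 and 30.7 CPM (-0.28, SE 0.06, adjusted p = 0.00393), also clear of 3D.

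TWNK read 27.2, 27.1 and 28.1 CPM with GO-203 (-0.19, SE 0.06, adjusted p = 0.0362) and MTERF1 26.2, 24.7 and 24.3 (0.25, SE 0.07, adjusted p = 0.0203), neither overlapping 3D. Both calls were lost without 3D replicate 1 (adjusted p = 0.117 and 0.115) or without GO-203 replicate 1 (0.127 and 0.135). TFAM read 125, 119 and 137 CPM, just below the 3D range (-0.15, SE 0.06, adjusted p = 0.0958), and leaving out any library but GO-203 replicate 3 ended its call (adjusted p 0.124 to 0.254), as did the absence of a filter (0.121) and a fit over all 21 libraries (0.119). MTERF3 read 62.4, 54.4 and 61.4 CPM and overlapped 3D (0.15, SE 0.06, adjusted p = 0.113), but was called without 3D replicate 3 (adjusted p = 0.0595) or GO-203 replicate 2 (0.0633). The ratio of TFAM to MTERF3 counts was 2.62 ± 0.0874 in 3D and 2.14 ± 0.123 with GO-203, without overlap (exact permutation p = 0.1, the smallest possible). TFB2M (-0.02), POLRMT (-0.08), TEFM (0.08) and POLG2 (0.11) were not called.

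MYC silencing lowered every one of the 10 genes. All 10 were called lower, against 58.5% of 19951 genes called in either direction, 28.1% lower and 30.3% higher, and their median was -0.72, against 0.01 over all genes. The helicase TWNK, the methylase TFB1M and the initiation factors TFB2M and TFAM fell most, and MTERF1, POLG and TEFM least. The scaling moved little here, with a shift of -0.03 in the median of all genes under library size alone, and the 10 directions were the same under TMM, RLE factors, DESeq2 and library size alone.

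TWNK read 33.3, 30.7 and 33.0 CPM with vehicle and 9.88, 12.4 and 12.3 with DOX. Every DOX library was far below every vehicle library, and the fall was by 1.504 on the log2 scale (SE 0.11, adjusted p = 1.28e-06), the 1 change of the 10 past 1.5, if barely, as were 10.5% of all genes. TFB1M went from 34.8, 33.0 and 34.8 to 12.8, 14.3 and 11.8 CPM (-1.42, SE 0.10, adjusted p = 1e-06). TFB2M went from 53.1, 50.1 and 49.4 to 25.1, 20.1 and 24.4 CPM (-1.15, SE 0.10, adjusted p = 4.11e-06). TFB1M and TFB2M, relatives that diverged in function, thus both fell by over 1 on the log2 scale.

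TFAM read 161, 165 and 162 CPM with vehicle and 99.5, 74.9 and 82.0 with DOX. The DOX libraries spread more than those with vehicle but stayed below them (-0.95, SE 0.10, adjusted p = 1.64e-05). MTERF3 went from 85.9, 85.6 and 89.6 to 54.6, 47.6 and 49.6 CPM (-0.80, SE 0.07, adjusted p = 7.22e-06). The ratio of TFAM to MTERF3 was 1.87 ± 0.058 with vehicle and 1.68 ± 0.127 with DOX, and the groups overlapped (exact permutation p = 0.2, smallest possible 0.1). POLRMT went from 39.7, 34.7 and 32.4 to 21.2, 28.0 and 27.4 CPM (-0.50, SE 0.12, adjusted p = 0.00508), a smaller fall than those of its partners.

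POLG2 fell by 0.64 (SE 0.11, adjusted p = 0.000693), from 13.2, 13.6 and 14.2 to 8.11, 9.97 and 8.56 CPM. TEFM went from 9.21, 9.65 and 9.27 to 7.26, 7.80 and 7.13 CPM (-0.36, SE 0.10, adjusted p = 0.0142). POLG went from 36.5, 35.2 and 33.2 to 25.1, 32.5 and 29.5 CPM, with a gap of under 1 CPM between the groups (-0.29, SE 0.10, adjusted p = 0.0354), and was not called without vehicle replicate 1 (adjusted p = 0.11). MTERF1 overlapped (-0.21, SE 0.10, adjusted p = 0.0911), and its call was lost without vehicle replicate 2 or 3 or DOX replicate 2 or 3 (adjusted p 0.171 to 0.232). The POLG to TWNK ratio went from 1.08 ± 0.0725 with vehicle to 2.51 ± 0.110 with DOX, opposite to MUC1 silencing and without overlap (exact permutation p = 0.1, the smallest possible).

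Whether the change on silencing differed between the lines was tested as an interaction over their 12 libraries. It differed for 8 of the 10 genes, against 52.9% of 21585 genes, 7 of them (26.0% of all genes) with a higher value on MUC1 silencing and 1, POLG, with a lower one (26.9% of all). The largest difference was that of TWNK, 1.84 (95% interval 1.60 to 2.08). MTERF1 (0.06, interval -0.16 to 0.29) and POLG2 (0.15, interval -0.12 to 0.43) were not called, but with library size alone, which shifts the median of all genes by 0.203 here, both were (0.267, adjusted p = 0.0857, and 0.360, adjusted p = 0.0465). MUC1 silencing and GO-203, which both target MUC1-C and share no library, differed for 8 of the 10 genes as well, against 44.9% of 20829 genes, 4 in each direction. No such difference passed 1.5 on the log2 scale, as 8.59% of all genes did. For TFB2M the interval of that difference was -0.29 to 0.08 and for POLRMT -0.12 to 0.27. The lines also differ in passage, and MUC1 silencing and GO-203 in agent, vehicle and cell line, so these differences cannot be told apart from those of the experiments.

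The mRNAs encoded by mitochondrial DNA stood beside these changes. The 13 mRNAs took 5.12 ± 0.0437% of all counts in 2D and 2.46 ± 0.190% in 3D (SD, n = 3), and all 13 fell, by 0.61 to 1.26 on the log2 scale, where 31.7% of all genes were called lower. Thus 7 of the nuclear genes rose while the transcripts of the genome they serve fell. On MUC1 silencing the share went from 2.699 ± 0.0872% to 6.51 ± 0.188%, and all 13 mRNAs rose (0.66 to 1.49, against 30.7% of all genes called higher), while TFAM rose by 0.13 and POLG fell. With GO-203 it went from 2.46 ± 0.190% to 3.68 ± 0.584%, and all 13 rose (0.40 to 0.70, against 11.1% of all genes). On MYC silencing it was 3.73 ± 0.356% with vehicle and 4.55 ± 0.565% with DOX, and 10 mRNAs rose, 0 fell and 3 (MT-ND1, MT-ND2 and MT-CO3) were not called (-0.16 to 0.81), against 30.3% of all genes called higher. MT-ND5, MT-ND6, MT-CO2, MT-ATP8 and MT-CYB were called with vehicle and DOX groups apart. MT-ND3, MT-ND4, MT-ND4L, MT-CO1 and MT-ATP6 were called although their groups overlapped. How often groups overlap over all genes was not computed. The exact permutation p for the share was 0.1 in the first 3 comparisons, the smallest possible, and 0.2 for MYC silencing, whose groups overlapped.

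**Figure D3:**
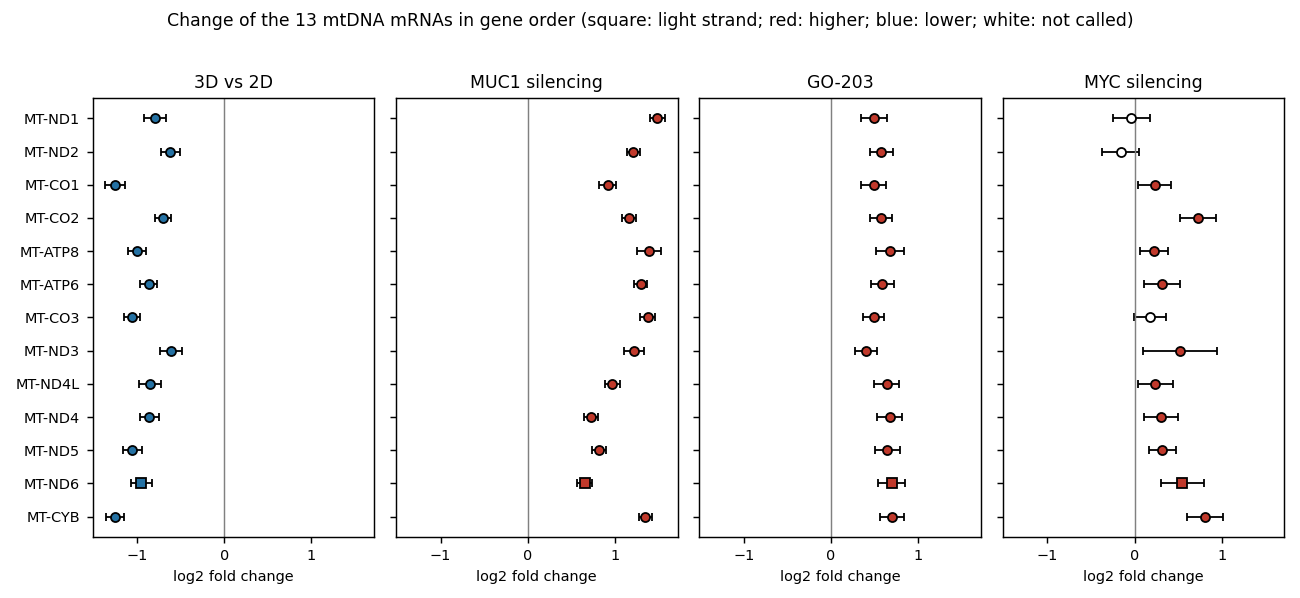
Log2 fold change (x axis) of the 13 mtDNA mRNAs (y axis, in the order of the genes along the genome, the light-strand gene MT-ND6 as a square) in the 4 comparisons, with 95% intervals. All lie below 0 in 3D against 2D, and above 0 on MUC1 silencing and with GO-203, with MT-ND1 the highest (1.49) and MT-ND6 the lowest (0.66) on MUC1 silencing.

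MT-ND1, a heavy-strand gene for a subunit of complex I next to the rRNA genes, had 1897 ± 49.7 CPM in 2D, 1096 ± 99.7 in 3D and 1508 ± 199 with GO-203. It went from 1054 ± 63.7 to 2908 ± 22.8 CPM on MUC1 silencing (1.49, SE 0.04, adjusted p = 1.67e-16), and read 2043 ± 227 and 2021 ± 308 CPM in vehicle and DOX libraries of the tet-MYCshRNA line (-0.04, SE 0.11, adjusted p = 0.805). MT-CO2, for a subunit of cytochrome c oxidase, rose in both lines, from 1704 ± 84.6 to 3754 ± 74.5 CPM (1.16, SE 0.04, adjusted p = 2.83e-15) and from 2698 ± 319 to 4519 ± 554 CPM (0.72, SE 0.11, adjusted p = 0.000208). MT-ND6, the 1 mRNA from the light strand, went from 280 ± 15.8 to 434 ± 2.10 CPM on MUC1 silencing (0.66, SE 0.04, adjusted p = 7.21e-11) and from 725 ± 85.6 to 1076 ± 193 CPM on MYC silencing (0.55, SE 0.13, adjusted p = 0.00409). Heavy-strand mRNAs changed by unequal amounts on MUC1 silencing, from 0.73 (MT-ND4, SE 0.04) to the 1.49 of MT-ND1. The number of mRNAs called on MYC silencing fell from 10 to 4 without vehicle replicate 1, to 6 without vehicle replicate 2 and to 5 without DOX replicate 3. Nuclear copies with the parent's name number 2 (MT-ATP8) to 48 (MT-CO1), MT-ND6 overlaps reads of the opposite strand unless strand was used, and libraries made from poly(A) RNA read tail length as well as amount, whose parts were not tested.

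Counts of the 13 mRNAs per count of TFAM, again free of scaling and chosen after values were seen, put the quantities side by side. They numbered 476 ± 9.65 in 2D, 176 ± 16.0 in 3D and 292 ± 54.2 with GO-203. They went from 296 ± 13.5 to 582 ± 11.9 on MUC1 silencing and from 226 ± 20.5 to 548 ± 89.4 on MYC silencing (SD, n = 3). In each of the 4 comparisons the groups did not overlap, with log2 differences of -1.44, 0.97, 0.72 and 1.27 in the order 3D against 2D, MUC1 silencing, GO-203 and MYC silencing (exact permutation p = 0.1 each, the smallest possible). On MYC silencing the ratio rose mostly through the fall of TFAM counts, and on MUC1 silencing through the rise of the mRNA counts.

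**Figure D4:**
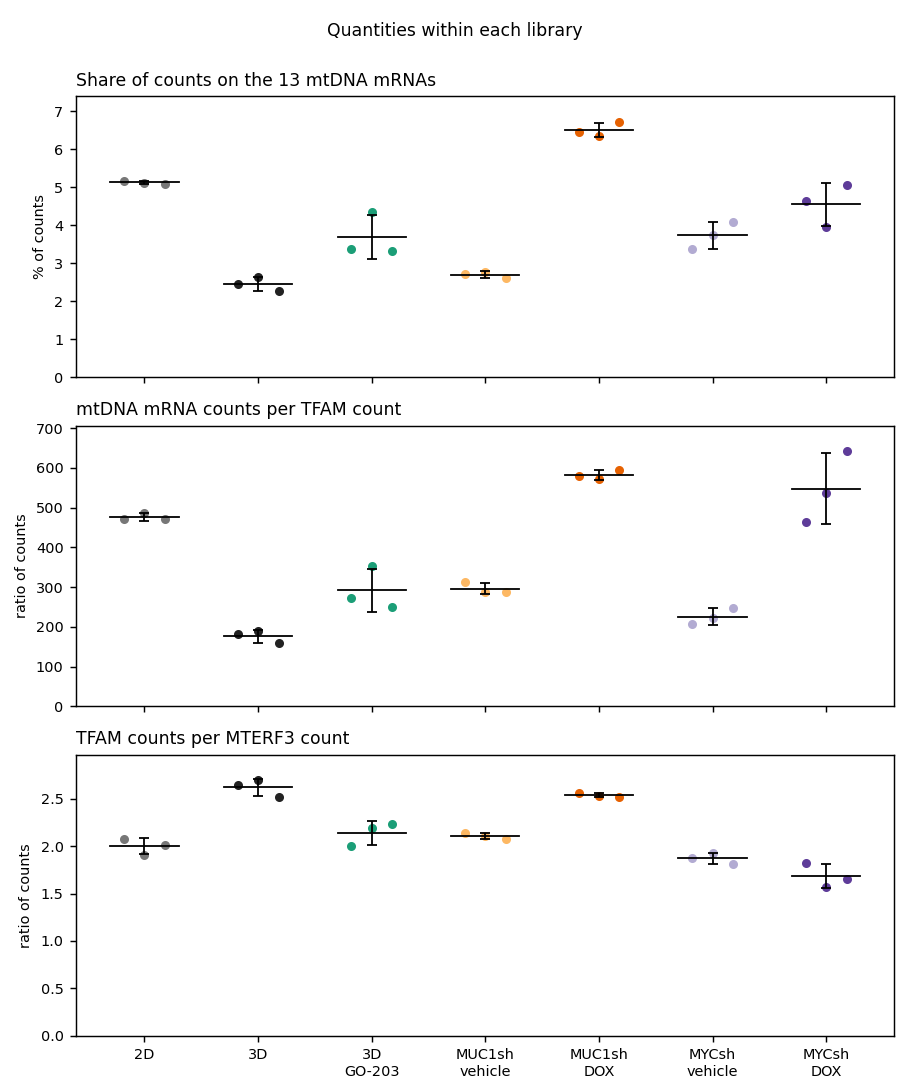
Percent of counts on the 13 mtDNA mRNAs (top), mtDNA mRNA counts per TFAM count (middle) and TFAM counts per MTERF3 count (bottom) in each library (points) by group, with mean and SD (n = 3). The 3D libraries are lowest in mtDNA mRNA counts per TFAM count (158 to 189), while their share of counts (2.27 to 2.65%) overlaps that of the vehicle-treated tet-MUC1shRNA line (2.60 to 2.77%).

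A further 44 genes of mtDNA maintenance and expression were taken as a list: other replication enzymes, suppliers of nucleotides, factors of termination, of ribosome assembly and of RNA processing, the protease LONP1, which degrades TFAM, and transcriptional regulators. In 3D against 2D 23 rose, 10 fell and 11 were not called, where 32.0% of all genes were called higher and 31.7% lower. RNA processing and stability genes mostly rose (13 of 17), as did 4 of 7 regulators, while 6 of 10 other replication genes fell. The largest rises were of ESRRA, an orphan nuclear receptor of energy metabolism (5.39 to 13.97 CPM, 1.37, SE 0.12, adjusted p = 7.7e-08), the coactivator PPARGC1B (1.18) and TBRG4 (1.12), of the FASTK family of RNA-binding proteins. The largest falls were of the mitochondrial thymidine kinase TK2 (-0.72), RNASEH1 (-0.71), which removes RNA from RNA-DNA hybrids, and the primase-polymerase PRIMPOL (-0.61).

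On MUC1 silencing 14 of the 44 rose and 14 fell, close to the 30.7% and 31.6% of all genes. HSD17B10, a subunit of the mitochondrial RNase P (0.73, SE 0.05, adjusted p = 1.44e-10), and the nucleases MGME1 (0.68) and EXOG (0.50) rose most. TOP1MT, the mitochondrial topoisomerase I (-0.74, SE 0.08, adjusted p = 9.5e-08), LONP1 (-0.64) and the RNA-binding protein GRSF1 (-0.39) fell most. With GO-203 2 rose and 13 fell, against 11.1% and 12.9% of all genes. The risers were PPARGC1A, a coactivator known for mitochondrial biogenesis, at a very low level (0.757 to 1.94 CPM), and RRM2B (0.17), a subunit of ribonucleotide reductase, and the largest falls were of the ADP/ATP carrier SLC25A4 (-0.48), FASTKD1 (-0.40) and the flap endonuclease FEN1 (-0.36).

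MYC silencing lowered 33 of the 44 and raised 6, against 28.1% of all genes lower and 30.3% higher. Among RNA processing and stability genes 14 of 17 fell, led over the whole list by FASTKD1 (37.5 to 10.9 CPM, -1.80, SE 0.12, adjusted p = 7.33e-07), the polynucleotide phosphorylase PNPT1 (-1.29) and TRMT10C, another RNase P subunit (-1.23). Of the other replication genes 8 of 10 fell and 0 rose. PPARGC1A went against the rest, with 14, 6 and 6 counts in the vehicle libraries and 279, 350 and 379 in the DOX libraries. Its fitted log2 fold change of 5.69 rests on those few vehicle counts. TYMP, a thymidine phosphorylase (1.41), and TK2 (0.99) also rose. The other 6 regulators fell, NRF1 by 0.37, GABPA by 0.26, ESRRA by 0.43, PPRC1 by 0.68 and PPARGC1B by 0.97 among them. The median over the 44 genes was -0.52, and it was 0.17 in 3D against 2D, 0.03 on MUC1 silencing and -0.07 with GO-203.

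**Figure D5:**
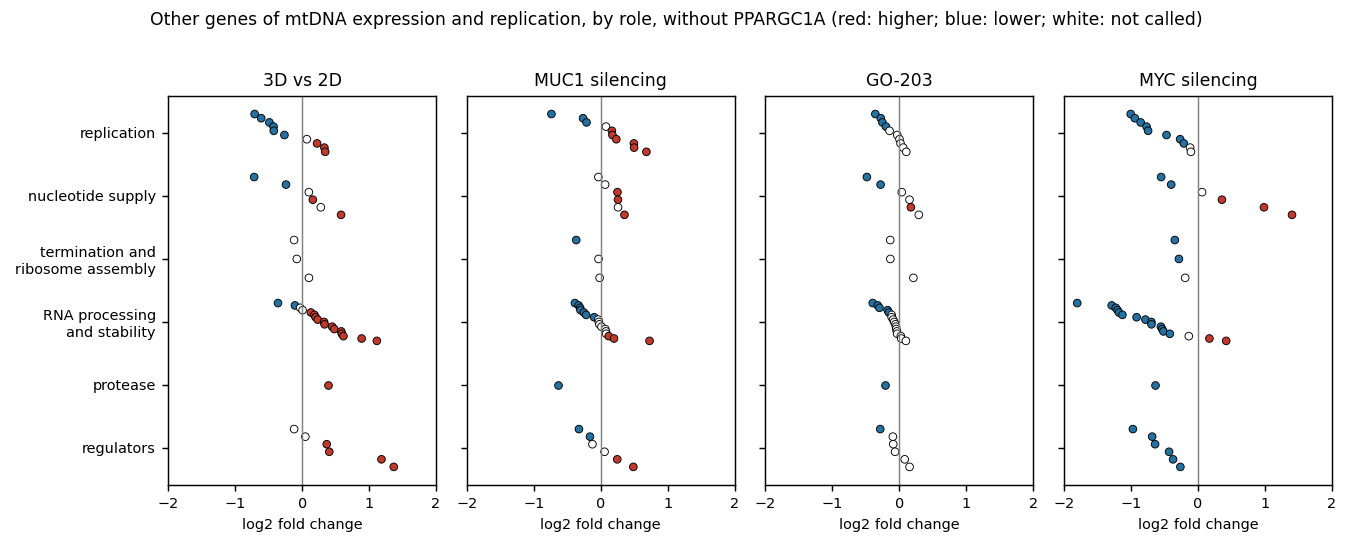
Log2 fold change (x axis) of 43 further genes of mtDNA maintenance and expression by role (y axis, 1 point per gene, spread vertically by rank) in the 4 comparisons, with PPARGC1A left out for its scale. Most points lie below 0 on MYC silencing, where 33 of the 44 listed genes were called lower, while those of GO-203 stay near 0.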

How the data were processed

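Total RNA of 21 BT-549 libraries was made into stranded poly(A) libraries by the authors and sequenced in pairs, and per the labels reads were aligned with STAR to GRCh38. The deposited values are raw counts per gene from featureCounts, with no normalization, and blank cells were read as 0. The annotation release and strand setting are not given in the sources used here.

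Each comparison was fitted on its own 6 libraries with edgeR 4.0.16 (R 4.3.3): filterByExpr, TMM factors, its quasi-likelihood F-test, and p-values adjusted by Benjamini-Hochberg over every gene tested, with a call at an adjusted p below 0.1. Differences between comparisons were interaction terms over 12 libraries. All 10 genes were named in every comparison, and from the list of 44 the 3 largest rises and falls among those called. Members and lists were chosen with earlier results of these data known, and the 3 within-library ratios after values were seen. Intervals are 1.96 SE either side. No library pair of a group agreed within sampling noise (chi-square per degree of freedom 4.13 to 45.6 over 21 pairs). Scripts were tested on simulated data. Alternatives were DESeq2 1.42.0, RLE factors, library size alone, library size and factors without mtDNA, other filters, all 21 libraries in one fit, a replicate block, stricter thresholds and each library left out.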

Additional observations from a re-analysis of the deposited data

Results flagged for a closer look

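The change on silencing differed between the tet-MUC1shRNA and tet-MYCshRNA lines for 8 of the 10 genes, against 52.9% of 21585 genes (edgeR interaction, value on MUC1 silencing minus value on MYC silencing, log2). The difference was 1.84 for TWNK (adjusted p = 8.18e-10), 1.27 for TFB1M (3.05e-08), 1.06 for TFAM (2.12e-07), 1.01 for TFB2M (2.53e-06), 0.85 for TEFM (0.000159), 0.65 for MTERF3 (8.23e-06) and 0.48 for POLRMT (0.0103). For POLG it was -0.76 (0.000153), since POLG fell by 1.04 on MUC1 silencing and by 0.29 on MYC silencing. TFAM, TEFM and TWNK were called higher in one line and lower in the other.

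The change on MUC1 silencing also differed from that with GO-203 for 8 genes, against 44.9% of 20829 genes. The difference was 0.54 for TWNK (adjusted p = 3.96e-06), 0.43 for TEFM (0.0402), 0.28 for TFAM (0.00354) and 0.27 for TFB1M (0.0113). It was -0.76 for POLG (6.73e-07), -0.58 for POLG2 (0.000691), -0.38 for MTERF1 (0.00335) and -0.28 for MTERF3 (0.00939). The TEFM call was lost without 3D replicate 3 (adjusted p = 0.119), GO-203 replicate 3 (0.104) or MUC1 vehicle replicate 2 (0.125). With library size alone, which shifts the median of all genes by 0.154 here, the MTERF3 difference was -0.128 (0.239) and no longer called, while POLRMT was called (0.228, 0.0829). TWNK was called higher on MUC1 silencing and lower with GO-203. Its GO-203 call was lost without 3D replicate 1 (adjusted p = 0.117) or GO-203 replicate 1 (0.127). TFAM was called in the same directions. Its call on MUC1 silencing was lost in a fit over all 21 libraries (0.255). With GO-203 the TFAM call was lost in that fit (0.119), without a filter (0.121) and on leaving out any 1 library but GO-203 replicate 3. Agent, vehicle and cell line change together between these experiments and cannot be told apart.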

How the results depend on the processing

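Over all alternatives except the 2 fold change thresholds, which were applied to counts of genes and are given below, the calls and directions held for 8 of the 10 genes on MYC silencing, 6 in 3D against 2D, 5 with GO-203 and 4 on MUC1 silencing. The cause of the changes below was not tested unless it is named.

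Library size alone, whose construction moves the median of all genes by 0.165 on MUC1 silencing, turned TFB2M (0.0383), POLRMT (0.152, adjusted p = 0.0319), TFB1M (0.0352), MTERF1 (0.0325) and MTERF3 (0.0244) there, and left 2 genes lower in place of 4. It turned MTERF3 in 3D against 2D (-0.0140), brought a second gene higher with GO-203 (2, MTERF3 joining MTERF1), and between MUC1 silencing and GO-203 turned TFB2M (0.0517) and MT-ND6 (0.119). Between the lines it brought a call of MT-ND6 (0.298, adjusted p = 0.0916). A minimum of 10 counts in every library left 2 genes lower on MUC1 silencing (MTERF3 and TFB1M lost), with POLRMT at 0.0376, gave 2 higher with GO-203, and put the MT-ND6 difference between these at 0.00957. When the vehicle group of the tet-MUC1shRNA line replaced 3D, 3 genes were lower than in 2D, and TFAM (-0.138), MTERF1 (0.0423) and MTERF3 (-0.214) turned.

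With an absolute log2 fold change above 1.5 required too, fewer were called by construction. In 3D against 2D 1 gene was higher, with 0 mtDNA mRNAs and 3107 genes in all. On MUC1 silencing 0 were higher and 0 lower, with 0 mtDNA mRNAs and 1696 genes. With GO-203 all were 0, with 140 genes. On MYC silencing 1 was lower, with 0 mtDNA mRNAs and 2085 genes. Between the lines 1 was higher and 0 lower, with 1 mtDNA mRNA and 3487 genes, and between MUC1 silencing and GO-203 all were 0, with 1789 genes. An absolute fold change above 1.5 left 7489 genes in 3D against 2D, 6185 on MUC1 silencing (0 of the 10 higher, 1 lower), 1041 with GO-203 (0 higher, 0 lower, 7 mtDNA mRNAs), 7514 on MYC silencing (6 lower, 2 mtDNA mRNAs) and 5266 between MUC1 silencing and GO-203 (0 higher, 1 lower).

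Leaving out 1 library at a time gave 0 to 2 genes higher and 2 to 4 lower with GO-203, and 4 to 11 mtDNA mRNAs called on MYC silencing. TEFM in 3D against 2D ranged from -0.214 to 0.0814, MTERF1 from -0.0602 to 0.0434, POLRMT on MUC1 silencing from -0.0505 to 0.0259, TFB2M with GO-203 from -0.0632 to 0.0333 and MT-ND1 on MYC silencing from -0.156 to 0.0557. Between the lines MT-ND6 ranged from -0.0547 to 0.183, and between MUC1 silencing and GO-203 it ranged from -0.112 to 0.0855 and POLRMT from -0.00916 to 0.146.

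Same-numbered libraries shared only weak deviations (mean correlation -0.01, 0.01, 0.06 and -0.09 in the 4 comparisons), and the main fits did not pair them. Whether same-numbered libraries share a batch was not tested. A replicate block gave 2 genes higher with GO-203 (MTERF3, adjusted p = 0.0777), 5 lower on MUC1 silencing (TFB2M, 0.0783) and 9 lower on MYC silencing (MTERF1 lost, 0.199), and changed no other call of the 10 genes in the 4 comparisons. The 3 libraries per group limit the exact tests to p = 0.1.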
